A study of Saccharomyces cerevisiae with 6 samples.

Results

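The general stress genes of budding yeast and their regulators were followed here in a sulfur dioxide-resistant strain. They are 32 genes of the 6256 with a probe on the array, chosen by name: 7 regulators (MSN2, MSN4, RIM15, YAK1, GIS1, XBP1 and USV1) and 25 genes linked to the transcription factors Msn2 and Msn4 that lie outside carbohydrate storage, chaperones and redox defence. All 32 were found through their systematic names, and all were well above background on each of the 6 arrays, so a filter on dim probes removed none of them.

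The arrays measured Saccharomyces cerevisiae F3, a single mutant strain obtained by evolutionary engineering for resistance to sulfur dioxide, and the strain named as its reference. The genotypes of both strains are not given in the sources used here, so the mutations that F3 carries are not known here. There were 3 cultures of F3 and 3 of the reference, shaken at 30 °C and 150 rpm. The sources disagree on the medium and the growth state: the series' design names yeast minimal medium and RNA taken in early exponential growth at an OD600 near 1.0, the sample titles name log phase, and the growth label names overnight growth in the rich medium YPD. No sulfite treatment is named for any of these cultures, so the comparison is of the strains without a named stress. Whether both strains were at the same growth state was not tested.

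In this response the zinc-finger factors Msn2 and Msn4 enter the nucleus when protein kinase A activity is low and activate a broad set of genes. Rim15 and Yak1 are kinases on the same branch that protein kinase A opposes, Gis1 acts downstream of Rim15 on genes of the post-diauxic phase, and Xbp1 is a repressor that is itself induced by stress. The set is best known for its rise in heat, osmotic, oxidative and weak-acid stress and as glucose runs out, and it is usually low in cells that grow fast on glucose.

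A level here is the log2 of a probe's processed signal minus that of its array's 75th percentile, and a difference is F3 minus reference on that scale. The 75th percentile of the signal lay between 8303 and 9517 units on the F3 arrays and between 2790 and 4949 on the reference arrays. No gene probe was saturated. The F3 arrays shared 1 slide, the reference arrays lay on 2 others, and the strains were scanned on different days, so strain, slide and scan day cannot be told apart. The scanner software's checks of negative controls and of the spot grid failed for every F3 array and passed for every reference array, and their part in the results was not tested. Scaled to 7 spike-in probes in place of the 75th percentile, the median difference of all genes moved to 1.76 from 0.05, and 95.2% of the called genes were higher in F3 against 52% before. The mean spike-in signal (log2) lay between 11.71 and 11.92 on the F3 arrays and between 11.68 and 13.22 on the reference arrays. Every direction below therefore holds relative to the 75th percentile, and for a named gene or a list whose direction turned with spike-in scaling that value or count is given as well. In RNA from a whole culture, more transcript in each cell and a larger share of cells with the gene switched on cannot be told apart.

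All 32 genes were higher in F3 at an adjusted p under 0.05 (limma, Benjamini-Hochberg over the 5948 genes tested), where 41.5% of all genes tested were called higher, 38.2% lower and 79.7% in either direction. Of them, 26 were called with at least a 2-fold increase, against 16.6% of all genes tested, and 15 with at least an 8-fold increase, against 2.39%. The median difference of the 32 was 2.68, with a range of 0.34 to 6.73, beside a median of 0.05 over all genes tested. For each of the 32, every F3 array lay above every reference array, as it did for 43% of all genes tested, while 39.5% were separated the other way. The smallest gap between the lowest F3 array and the highest reference array was 0.21, for MSN2. By the size of the increase, 1 of the 32 was among the 10 largest on the array, 12 were among the 100 largest and 23 among the 500 largest. The 25 target genes had a median difference of 3.26 and the 7 regulators one of 0.93.

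**Figure D1:**
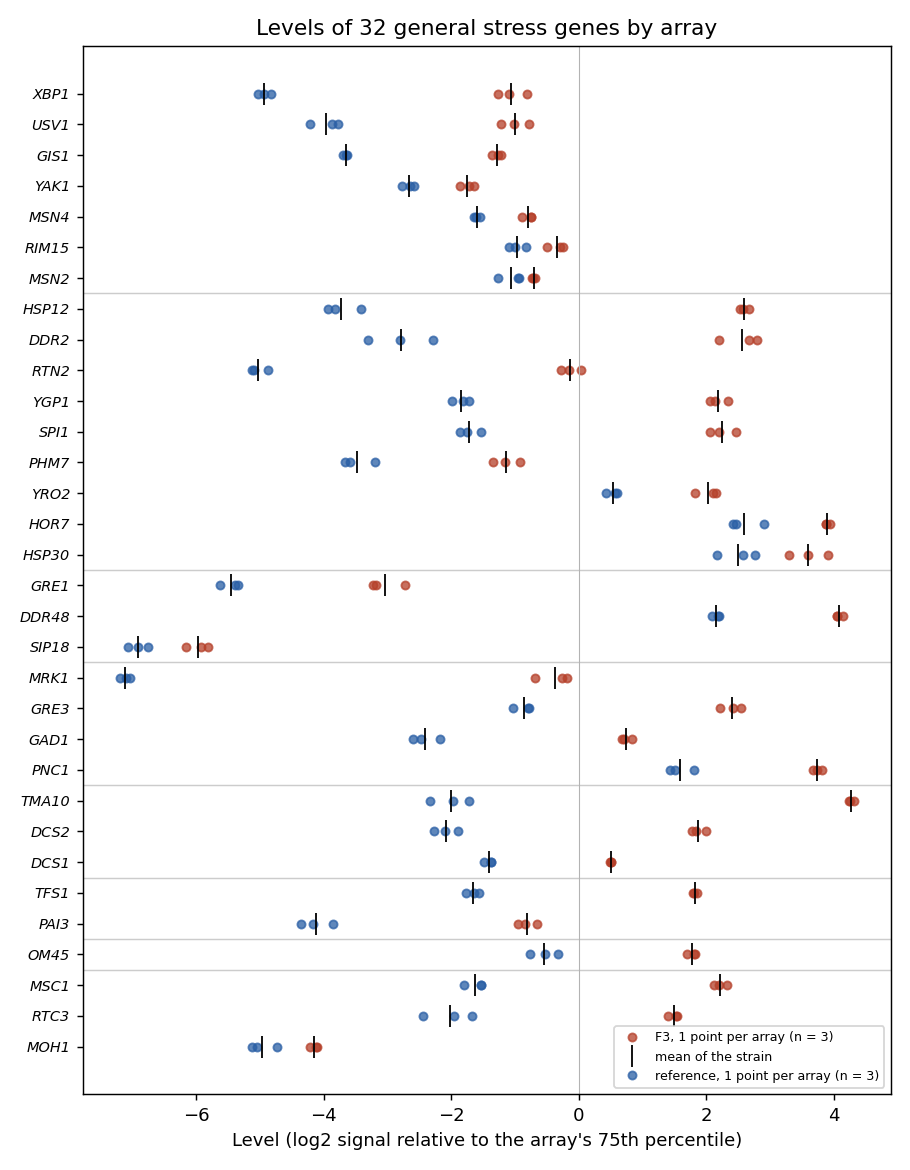
Level of each of the 32 genes on each array (x axis, log2 signal minus the array's 75th percentile), with regulators at the top and the roles separated by lines; each point is 1 array and each black bar the mean of 3. The F3 points lie to the right of the reference points in all 32 rows, by the most for MRK1 (difference 6.73) and by the least for MSN2 (0.34).

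Among the regulators, MSN2 differed least, and the gene for the other activator, MSN4, lay between the kinase genes RIM15 and YAK1. MSN2 stood at −0.72, −0.73 and −0.68 on the F3 arrays and at −0.96, −0.94 and −1.27 on the reference arrays, a difference of 0.34 ± 0.10 (SE, adjusted p = 0.012). The 3 F3 arrays nearly coincided and reference replicate 3 lay below the other two, and without that array the difference was 0.24 and still called. MSN4, the relative of MSN2 that is itself stress-inducible, stood at −0.75, −0.75 and −0.89 in F3 and at −1.65, −1.55 and −1.61 in the reference, a difference of 0.81 ± 0.08 (SE, adjusted p = 1.4e-05). Its strains were set apart by several times the spread within either of them.

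The kinases showed increases of similar size. RIM15 was at −0.25, −0.50 and −0.30 in F3 and at −1.0, −0.83 and −1.10 in the reference (difference 0.63 ± 0.10 SE, adjusted p = 4.5e-04). YAK1 was at −1.72, −1.87 and −1.65 in F3 and at −2.78, −2.64 and −2.59 in the reference (0.93 ± 0.09 SE, adjusted p = 1.6e-05). Both kinase genes were thus below 2-fold. IRC9, a reading frame that overlaps YAK1 and was picked out after its value was seen, rose by 1.46 (SE 0.08), and without the probe sequences it is not known whether the YAK1 probe lies in the shared stretch.

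The other 3 transcription factors rose far more. XBP1, a repressor with a DNA-binding domain like those of Swi4 and Mbp1, was at −1.09, −0.82 and −1.26 in F3 and at −5.03, −4.94 and −4.82 in the reference, a 14.6-fold increase (3.87 ± 0.12 SE, adjusted p = 2.5e-08). Its signal in the reference was only 85.5 to 176 units, against 3480 to 5120 in F3, and with normexp background correction the difference was 3.21. USV1, a zinc-finger factor linked to growth on non-fermentable carbon, was 7.77-fold higher: −1.01, −0.78 and −1.22 in F3 against −3.87, −4.22 and −3.78 in the reference (2.96 ± 0.15 SE, adjusted p = 2.4e-07). GIS1, a factor with a JmjC domain, was 5.19-fold higher: −1.22, −1.26 and −1.36 in F3 against −3.69, −3.63 and −3.65 in the reference (2.38 ± 0.07 SE, adjusted p = 2.8e-08). For these factors the distance between the strains was at least 10 times the SE, and GIS1 varied least between cultures.

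Genes for proteins of the membranes and the cell wall made up the largest group, with 9 members, each at least 2-fold higher and 5 of them at least 8-fold higher. HSP12, a small protein that stabilises membranes, was at 2.67, 2.58 and 2.52 in F3 and at −3.83, −3.93 and −3.42 in the reference. Its signal went from between 196 and 466 units in the reference to between 47800 and 60600 units in F3, a 79.7-fold increase (6.32 ± 0.13 SE, adjusted p = 5.3e-09). DDR2, a multistress gene first found by its response to DNA damage, was at 2.66, 2.80 and 2.19 in F3 and at −3.30, −2.80 and −2.28 in the reference, a 40.7-fold increase (5.35 ± 0.25 SE, adjusted p = 1.9e-07). It had the largest SD of the 32 within both strains (0.32 in F3 and 0.51 in the reference), and its 95% interval ran from 4.77 to 5.92. RTN2, a reticulon that shapes the endoplasmic reticulum, was at 0.04, −0.28 and −0.16 in F3 and at −4.88, −5.10 and −5.13 in the reference, a 29.9-fold increase (4.90 ± 0.11 SE, adjusted p = 7.0e-09, or a difference of 4.15 with normexp).

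The genes for extracellular proteins followed closely. YGP1, a secreted glycoprotein of starved cells, was 16.2-fold higher, with levels of 2.14, 2.34 and 2.05 in F3 and −1.99, −1.72 and −1.81 in the reference (4.02 ± 0.10 SE). SPI1, an anchored cell wall protein linked to weak-acid tolerance, was 15.5-fold higher, with levels of 2.20, 2.06 and 2.46 in F3 and −1.87, −1.75 and −1.54 in the reference (3.96 ± 0.12 SE). The intervals of both differences overlapped, so their order is not resolved. PHM7, a membrane protein of little-known function, rose by 2.34 (SE 0.15).

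HOR7, YRO2 and HSP30 were already at 0 or above in the reference and rose less. HOR7, a gene of the response to high osmolarity, stood at 3.94, 3.87 and 3.88 in F3 and at 2.41, 2.47 and 2.91 in the reference (1.30 ± 0.13 SE, adjusted p = 1.9e-05). YRO2 and HSP30 encode related membrane proteins, and Hsp30 is known to restrain the plasma membrane proton pump Pma1. YRO2 rose by 1.49 (SE 0.11) and HSP30 by 1.10 (SE 0.19, adjusted p = 5.8e-04), the latter with a lowest F3 level of 3.29 and a highest reference level of 2.76.

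Of the genes for hydrophilic, water-stress proteins, GRE1 and SIP18 encode hydrophilins and DDR48 a hydrophilic protein rich in repeats. GRE1 was at −3.18, −2.72 and −3.23 in F3 and at −5.39, −5.63 and −5.34 in the reference, a 5.31-fold increase (2.41 ± 0.14 SE, adjusted p = 8.0e-07, or a difference of 1.66 with normexp). DDR48 was at 4.14, 4.05 and 4.05 in F3 and at 2.18, 2.09 and 2.19 in the reference, a 3.79-fold increase from a level already above the 75th percentile (1.92 ± 0.07 SE, adjusted p = 6.1e-08). SIP18 was dim in both strains, with a signal of 116 to 170 units in F3 and 20.8 to 45.2 in the reference. Its difference of 0.95 ± 0.12 (SE, adjusted p = 7.4e-05) was lost with normexp background correction, which gave −0.04 (adjusted p = 0.763), so SIP18 is the 1 gene of the 32 whose direction depended on how background was treated.

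The enzymes of the set rose by 4-fold or more. MRK1, a kinase of the glycogen synthase kinase 3 family, showed the largest increase of the 32 and ranked 6 among all genes tested. Its level was −0.27, −0.18 and −0.69 in F3 and −7.10, −7.03 and −7.20 in the reference. The signal behind it was 20.4 to 37.4 units in the reference, still marked as well above background on each array, and 5160 to 8020 units in F3. With so dim a reference the size of the fold rests on the background correction: the difference was 6.73 ± 0.13 (SE, adjusted p = 4.0e-09) and was 5.03 with normexp.

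GRE3, an aldose reductase, was 9.59-fold higher, with levels of 2.42, 2.22 and 2.54 in F3 and −1.03, −0.78 and −0.79 in the reference (3.26 ± 0.11 SE, adjusted p = 3.4e-08). GAD1, the glutamate decarboxylase, was 8.95-fold higher, with levels of 0.84, 0.71 and 0.68 in F3 and −2.47, −2.60 and −2.17 in the reference (3.16 ± 0.12 SE, adjusted p = 5.3e-08). PNC1, the nicotinamidase that removes an inhibitor of the deacetylase Sir2, was 4.47-fold higher, with levels of 3.74, 3.67 and 3.81 in F3 and 1.43, 1.51 and 1.80 in the reference (2.16 ± 0.11 SE, adjusted p = 2.5e-07). In each of these the arrays of a strain lay within 0.5 of each other.

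TMA10, DCS1 and DCS2 act on ribosomes or mRNA caps. TMA10, a ribosome-associated protein, was at 4.23, 4.25 and 4.31 in F3 and at −1.97, −2.34 and −1.72 in the reference, a 77.3-fold increase (6.27 ± 0.14 SE, adjusted p = 7.1e-09). It thus went from well below the 75th percentile in the reference to well above it in F3. DCS2, which modulates the scavenger decapping enzyme Dcs1, was 15.6-fold higher, with levels of 2.0, 1.84 and 1.77 in F3 and −2.10, −2.27 and −1.90 in the reference (3.96 ± 0.11 SE, adjusted p = 1.7e-08). DCS1 itself was 3.76-fold higher and among the most even between cultures, at 0.50, 0.51 and 0.49 in F3 and −1.37, −1.48 and −1.38 in the reference (1.91 ± 0.07 SE, adjusted p = 5.7e-08).

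The genes for inhibitors of vacuolar proteases rose by similar amounts. TFS1, an inhibitor of carboxypeptidase Y, was 11.1-fold higher, with levels of 1.86, 1.81 and 1.79 in F3 and −1.65, −1.77 and −1.56 in the reference (3.48 ± 0.08 SE, adjusted p = 7.8e-09). PAI3, an inhibitor of proteinase A, was 9.87-fold higher, with levels of −0.66, −0.96 and −0.84 in F3 and −4.16, −4.35 and −3.85 in the reference (3.30 ± 0.14 SE, adjusted p = 9.9e-08). Their 95% intervals, 3.29 to 3.66 and 2.99 to 3.61, overlapped.

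Of the remaining genes, OM45, a protein of the mitochondrial outer membrane, was at 1.82, 1.81 and 1.69 in F3 and at −0.53, −0.76 and −0.33 in the reference (2.31 ± 0.11 SE, adjusted p = 2.4e-07). MSC1, a gene of little-known function, rose by 3.84 (SE 0.10), and RTC3, a small protein linked to RNA metabolism, by 3.51 (SE 0.17). RTC3 varied more in the reference (−2.44, −1.96 and −1.68) than in F3 (1.54, 1.40 and 1.52). MOH1, a gene linked to survival in stationary phase, stayed low in both strains, at −4.22, −4.10 and −4.12 in F3 and −4.73, −5.13 and −5.05 in the reference. Its difference of 0.83 ± 0.11 (SE, adjusted p = 1.3e-04) was 0.42 with normexp, 0.43 with quantile normalization and 0.46 in the authors' processed values, and it was called in each.

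**Figure D2:**
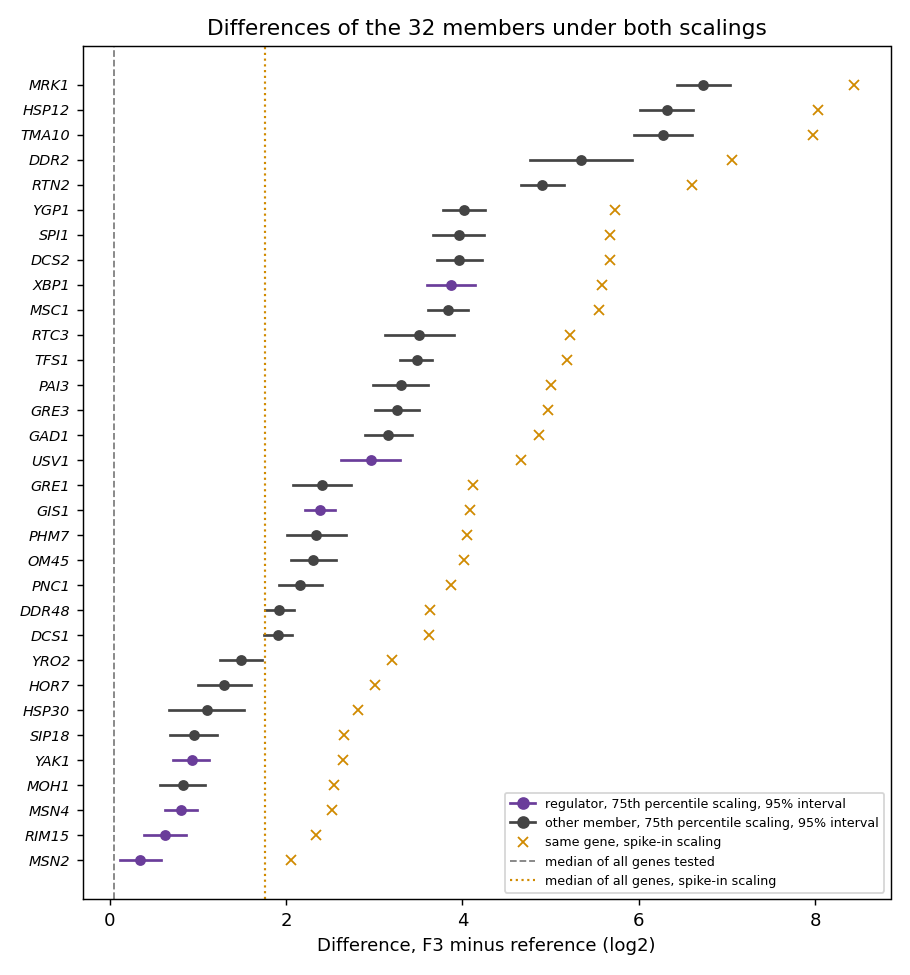
Difference of each of the 32 genes (x axis, log2, F3 minus reference) in order of size, as a point with its 95% interval from limma, with the same gene under spike-in scaling as a cross; the dashed and dotted lines mark the median of all genes tested under the 2 scalings, 0.05 and 1.76. The regulators MSN2, RIM15, MSN4 and YAK1 lie at the low end, between 0.34 and 0.93, and MRK1, HSP12 and TMA10 at the high end, between 6.27 and 6.73.

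The order of the increases was resolved only in steps. At the top, MRK1, HSP12 and TMA10 had overlapping 95% intervals (6.43 to 7.04, 6.01 to 6.62 and 5.95 to 6.60). DDR2 came next, with an upper bound of 5.92 below these, and its interval (4.77 to 5.92) overlapped that of RTN2 (4.66 to 5.15). YGP1, SPI1, DCS2, XBP1 and MSC1 lay between 4.02 and 3.84. They were not set apart from the genes below, since the intervals of MSC1 (3.61 to 4.06) and RTC3 (3.12 to 3.90) overlapped. At the bottom, the interval of MSN2 (0.11 to 0.58) overlapped that of RIM15 (0.39 to 0.86) and lay below that of MSN4 (0.63 to 0.99). In all, 25 of the 32 had an interval at or above a 2-fold increase, counting HOR7, whose lower bound was 1 after rounding. For 13 the interval lay wholly above an 8-fold increase. The share of all genes tested with such intervals was not computed.

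Between cultures of a strain the 32 genes varied slightly more than other genes. The median SD over 3 arrays was 0.12 in F3 and 0.16 in the reference, against 0.09 and 0.11 over all genes tested. Reference replicate 3 was the highest of the reference arrays for 20 of the 32 genes, and F3 replicate 1 was the lowest of the F3 arrays for 2. Reference replicate 3 was also the only array on its slide and had the highest spike-in signal (13.22), and the part of the slide in this pattern was not tested. When that array was left out, 32 genes were still higher and 26 at least 2-fold higher. Leaving out any 1 of the other 5 arrays also gave 32 higher, with 25 to 27 at least 2-fold higher.

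Several of the genes have a relative of similar sequence, and 14 such pairs were compared, 5 within the set and 9 with a gene outside it. In all 9 pairs with a gene outside, the gene of the set rose more than its relative, and in 12 of the 14 pairs the increases differed by at least 2-fold. The genes of the set in these 9 pairs rose by 1.49 to 6.73, beside a median of 0.05 over all genes tested. The lists were also chosen with earlier results of these data known. Most genes on the array would rise less than these, so the counts are read as no result about relatives. The difference in level between the genes of a pair did not overlap between the strains in 13 pairs, where the exact permutation test gave p = 0.10 (two-sided), the smallest that 3 against 3 arrays allow, so no pair could pass 0.05. For YRO2 and HSP30 the ranges overlapped (exact permutation p = 0.20). The share of other gene pairs without overlap was not computed. Of single genes tested, 43% were separated with F3 higher and 39.5% with F3 lower, so the 13 pairs are read as no result about relatives.

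Within the set, DDR2 and HOR7 are relatives whose increases differed most, 5.35 against 1.30. DCS2 rose by 3.96 and DCS1 by 1.91, and GRE1 by 2.41 and SIP18 by 0.95. MSN4 rose by 0.81 and MSN2 by 0.34, and YRO2 by 1.49 and HSP30 by 1.10.

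Of the 9 relatives outside the set, 5 were called higher, 2 lower and 2 neither, and their median difference was 0.32 (all 9 called higher by the spike-in probes, as were 85.6% of all genes tested). Relative to the 75th percentile, 41.5% of all genes tested were called higher and 38.2% lower, so these counts are read as no result about the list. RTN1, the other reticulon, was lower in F3, with a difference of −0.44 (SE 0.12, adjusted p = 0.0095), while RTN2 rose by 4.90. By the spike-in probes the differences were 1.27 for RTN1 and 6.61 for RTN2. YLR179C, which lies next to TFS1 on chromosome XII and resembles it, was also lower, with a difference of −0.54 (SE 0.10, adjusted p = 0.0013), while TFS1 rose by 3.48. By the spike-in probes the differences were 1.17 for YLR179C and 5.19 for TFS1. Neighbours of like sequence thus had opposite signs relative to the 75th percentile and the same sign by the spike-in probes.

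RIM11, a kinase related to MRK1, rose by 1.30 (SE 0.08) against 6.73 for MRK1. RPH1, the relative of GIS1, differed by 0.23 (SE 0.09, adjusted p = 0.034). It was not called with normexp, quantile normalization or the authors' values, and not without any 1 of the F3 arrays or without reference replicate 1. RGM1, the relative of USV1, differed by 0.32 (SE 0.16, adjusted p = 0.090, or −0.50 and adjusted p = 0.0144 with normexp), and MRH1, the relative of YRO2, by −0.17 (SE 0.14, adjusted p = 0.27), which became 1.54 by the spike-in probes. STF2, SPS100 and SED1, relatives of TMA10, YGP1 and SPI1, rose by 2.47, 2.04 and 1.97, each less than its partner.

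**Figure D3:**
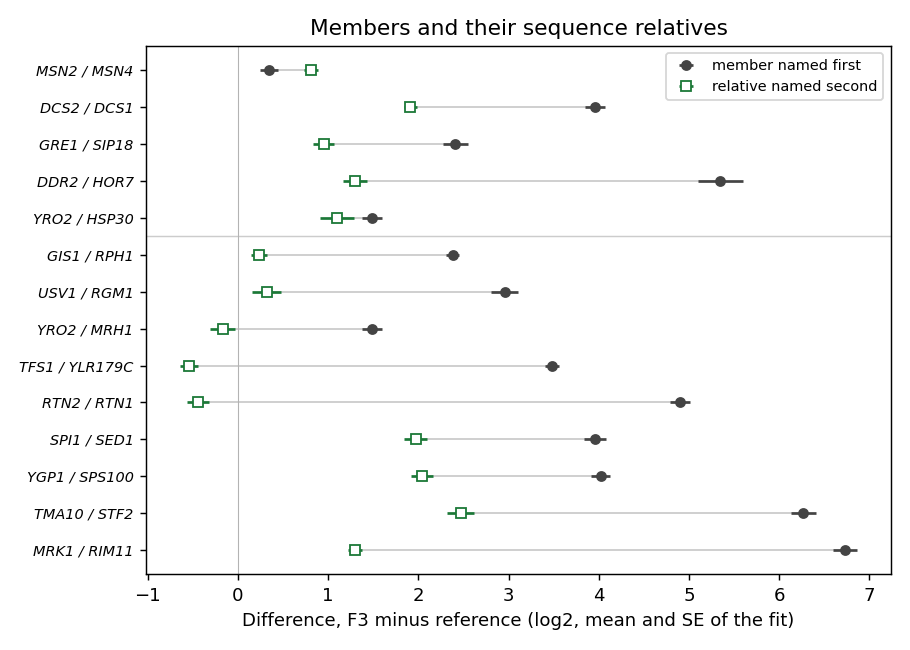
Differences (x axis, log2, F3 minus reference, mean and SE of the fit) of 14 pairs of sequence relatives, with the gene named first as a filled circle and its relative as an open square; the line separates 5 pairs within the set from 9 with a gene outside it. RTN2 with RTN1 (4.90 and −0.44) and MRK1 with RIM11 (6.73 and 1.30) lie farthest apart, and YRO2 with HSP30 (1.49 and 1.10) closest.

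Genes for known partners of these proteins were compared as a list of 8, of which 6 rose and 2 were lower (none of them lower by the spike-in probes), and the median difference was 1.22. Over all genes tested 41.5% were called higher and 38.2% lower, and the 8 genes are read as single values. OM14, which sits with Om45 in the mitochondrial outer membrane, rose by 3.77 (SE 0.13), more than OM45. UGA1 and UGA2, which carry on the pathway that Gad1 opens, rose by 1.90 (SE 0.08) and 0.70 (SE 0.11). The proteases whose inhibitors rose were higher as well, PEP4 (proteinase A) by 0.99 (SE 0.08) and PRC1 (carboxypeptidase Y) by 1.46 (SE 0.08), both less than PAI3 and TFS1. XYL2, a xylitol dehydrogenase that can act after Gre3, rose by 2.41 (SE 0.09).

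SIR2 and PMA1 were lower in F3 relative to the 75th percentile, but not by the spike-in probes, while the genes for proteins that act on theirs rose. SIR2 was at −3.42, −3.39 and −3.41 in F3 and at −1.88, −1.75 and −1.58 in the reference (−1.67 ± 0.09 SE, adjusted p = 4.1e-07), while PNC1 rose by 2.16. With spike-in scaling the SIR2 difference was 0.04 and not called (adjusted p = 0.892), and the PNC1 difference was 3.87. PMA1 was at 4.14, 4.25 and 4.47 in F3 and at 5.21, 4.92 and 4.78 in the reference (−0.68 ± 0.13 SE, adjusted p = 0.0012), while HSP30 rose by 1.10. By the spike-in probes the differences were 1.03 for PMA1 and 2.81 for HSP30.

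Of 33 signalling genes listed upstream of Msn2 and Msn4, 18 were higher, 10 were lower and 5 were not called, and their median difference was 0.26 (30 higher and 1 lower with spike-in scaling). Over all genes tested 41.5% were higher and 38.2% lower, so these counts are read as no result about the list. At least 2-fold changes were called for 7 higher and 3 lower, beside 16.6% and 16.2% of all genes tested. The Ras and protein kinase A genes held all 7 of the former. Among them TPK2, a catalytic subunit, rose by 2.32 (SE 0.07), the inhibitory subunit BCY1 by 1.43 (SE 0.09) and the adenylate cyclase CYR1 by 1.86 (SE 0.11). RAS1 fell by 2.91 (SE 0.07), also with spike-in scaling (−1.20). TPK3, another catalytic subunit, was lower as well (−1.71 ± 0.07 SE), but not with spike-in scaling (0.00). The TPK3 difference was −1.74 with quantile normalization, −1.74 in the authors' values and −1.73 with normexp. Among the phosphatases, anchors and the exporter that act on Msn2, differences lay between −0.72 and 0.57, with 2 of 8 higher and 4 lower (none lower by the spike-in probes). BMH1, a 14-3-3 protein and 1 of the 8, was not called (0.10, adjusted p = 0.22), but it was higher with quantile normalization (0.53, adjusted p = 2.4e-04) and in the authors' values (0.60, adjusted p = 1.1e-04). YGK3, a kinase of the same family as MRK1, was lower (−1.19 ± 0.10 SE, or 0.52 and not called with spike-in scaling), as was MCK1, another of that family (−0.45 ± 0.11 SE, or 1.26 with spike-in scaling).

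The 28 Msn2 and Msn4 targets from carbohydrate storage, chaperones and redox defence, listed for comparison, were also all higher in F3, as were 41.5% of all genes tested. Their median was 3.02, with a range of 0.61 (SOD2) to 7.40 (HXK1). Their counts were close to those of the 25 targets in the set. At least 2-fold higher were 27 of 28 and 23 of 25, beside 16.6% of all genes tested. At least 8-fold higher were 15 and 14, beside 2.39%. This list too was chosen with earlier results of these data known, so it is no independent check. No test was made of the difference between these lists.

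**Figure D4:**
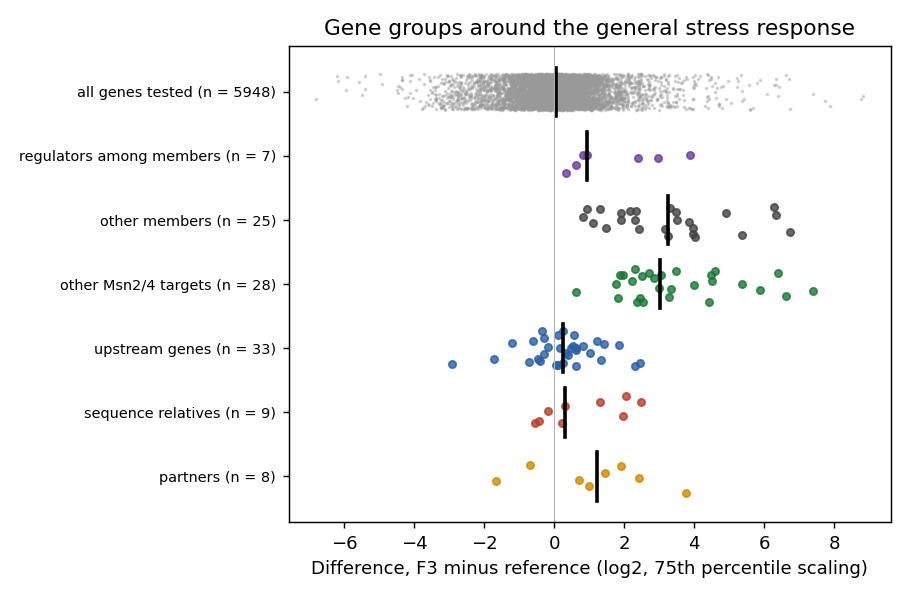
Differences (x axis, log2, F3 minus reference) of the regulators, the other 25 genes of the set and the lists compared with them, with 1 point per gene and a black bar at the median; all 5948 genes tested are shown in grey. The targets in and outside the set have medians of 3.26 and 3.02, while the regulators (0.93), the upstream genes (0.26) and the sequence relatives (0.32) lie nearer the median of all genes (0.05).

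The 32 genes are spread over 15 of the nuclear chromosomes, with 7 on chromosome XIII. DDR48, PAI3 and SIP18 are consecutive there in the gene order of the R64 assembly, and they rose by 1.92, 3.30 and 0.95. The middle gene of this run thus changed most, and the increase of the last was the one lost with normexp.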

How the data were processed

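RNA from 3 cultures of each strain was hybridised to 1 one-colour array per culture, after 0.2 µg was labelled with Cy3 per the labels' protocols. Groups and replicate numbers come from the sample titles, and the growth label's overnight culture in YPD disagrees with the minimal medium and early exponential harvest of the design text. The series' design text states separate cultures, so p-values set strains against the spread between cultures.

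Per the file headers, the deposited processed signal is an intensity that Feature Extraction 10.7.3.1 background-subtracted and detrended within each array (the submitters' processing notes name version 9.1), with flags (other columns) that mark spots as well above background. The log2 values that the authors deposited, centred on 0 for each probe, correlated with the scanner values centred likewise at r between 0.9877 and 0.9931, and their column medians were 0.0098, 0 and 0.011 (F3 replicates 1 to 3) and −0.0055, −0.0056 and −0.0141 (reference replicates 1 to 3). They run in the scanner's direction on a log2 scale, and how they were scaled between arrays is unknown.

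Each probe's level was the mean log2 signal of its 2 spots minus the array's 75th percentile. Genes well above background (at least 1 spot) on at least 3 of 6 arrays were tested (5948, with 308 left out). Strains were compared with limma 3.58.1 in R 4.3.3 (lmFit, eBayes, two-sided), which was tested on simulated data. Alternatives were normexp, quantile and spike-in scaling, the authors' values, other filters on dim probes, replicate or slide blocks and leaving out each array. Pairs were compared by exact permutation (SciPy 1.17.1). Names and gene order come from the RefSeq table of R64, which named 5756 probes directly. Normexp used the median spot signal, since the files hold no mean signal.

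The 32 genes and all lists were chosen with earlier results of these data known. Besides the 32, any gene of the relatives, partners and upstream lists could be named, and of the other targets the 4 largest increases and any that fell or did not pass. SOD2 and IRC9 were named after their values were seen. A search of promoters for binding motifs had been planned, and promoter sequence was not analysed here.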

Additional observations from a re-analysis of the deposited data

How the results depend on the processing

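The 32 increases kept their direction and their call with quantile normalization, with the authors' values and without any 1 array. All but SIP18 did so with normexp (31 higher). The median difference of the 32 was 2.43 with normexp and 4.39 with spike-in scaling. All 32 were also called higher with spike-in scaling and under both other filters on dim probes, but these settings could not turn an increase. Spike-in scaling raised all values alike, and the filters removed none of the 32 and left their differences unchanged. With the slide as a random block all 32 were called higher too. Each slide held arrays of 1 strain, so that block could not separate slide from strain. Spike-in scaling, by which 85.6% of all genes tested were called higher, changed other counts. It moved upstream genes to 30 higher and 1 lower, relatives to 9 higher and 0 lower, and partners to 0 lower. It turned the direction of 15 genes, by values not all called: GPR1 (1.53), TPK3 (0.00), PDE2 (1.12), SCH9 (1.43), WHI2 (1.32), PSR1 (1.37), PSR2 (0.99), BUD14 (1.43), MCK1 (1.26), YGK3 (0.52), MRH1 (1.54), YLR179C (1.17), RTN1 (1.27), SIR2 (0.04) and PMA1 (1.03). BMH1 was called higher with quantile normalization (0.53) and in the authors' values (0.60). Normexp turned SIP18 (−0.04) and RGM1 (−0.50). The turns with spike-in scaling follow from the shift that it gives all genes alike, and the cause of the turns with normexp was not tested. Of the 78 genes outside the set, 5 lost their call without at least 1 array (RAS2, CDC25, SCH9, BUD14 and RPH1), and each of these differed by less than 0.3. Whether same-numbered cultures of the strains were paired is not known here. The deviations of same-numbered arrays correlated at −0.153, 0.081 and −0.251, and those of differently numbered arrays at −0.168 to 0.288. With 3 arrays per strain these values cannot decide it. With the replicate block, 32 of the set were called, as were 2384 genes higher and 2211 lower in all (2467 and 2275 without it). The block ended the calls of CDC25 and RPH1 (adjusted p = 0.0526 and 0.0542) and added one for RGM1. Dim signal limits MRK1, SIP18, MOH1, GRE1, XBP1 and RTN2, whose reference signals lay below 200 units.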

Other observations

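The chromosomal neighbours of the 32 genes, a list made after the data were seen, were read as values only. Of 59 neighbours outside the set with a probe, 57 were tested: 31 were higher and 15 lower in F3, with a median difference of 0.24. At least 2-fold, 16 were higher and 3 lower, beside 16.6% and 16.2% of all genes tested. The called shares over all genes tested were 41.5% higher and 38.2% lower. With spike-in scaling, tried after the data were seen, 54 of the 57 neighbours were higher, 0 were lower and 3 were not called. By that scaling 85.6% of all genes tested were higher, and the median of the neighbours was 1.95. The 15 lower calls thus depend on the scaling.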
